A study of Populus trichocarpa with 6 samples.

Results

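Of 13409 merged peak regions on the 19 chromosomes of Populus trichocarpa (black cottonwood), 2676 (20.0%) held peaks of exactly 2 of 3 replicate peak lists for the FLAG-tagged protein PtrVCS2. They are called 2-list regions here. The 4194 regions with a peak in every list are called 3-list regions, and 6539 came from 1 list. Members were chosen by measured calls: peaks of the lists sharing at least 1 bp were merged, and a region counted if peaks of 2 lists, and none of the remaining list, lay in it. Fold, significance and peak width decide whether a peak is listed at all, so differences in them between 2-list and 3-list regions are descriptions without a test. In addition, regions are not replicates, and 3 lists cannot bring an exact test below p = 0.05, so no p-value is given.

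The chromatin came from cambium of plants that overexpress PtrVCS2 with 3 copies of the FLAG tag, immunoprecipitated (IP) with an anti-FLAG antibody, in 3 biological replicates. The other 3 samples are input DNA of the same genotype, and all plants carry the transgene. Each IP library was set against the same pooled input, per the peak names, so the lists share their control. The promoter driving the transgene, the number of lines and the plants per replicate are details not given in the sources used here. No plants without the tagged protein were analysed here.

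The cambium is the layer of dividing stem cells between wood and inner bark, and its divisions thicken the stem. PtrVCS2 has been studied there together with PtrWOX4a, a homeodomain transcription factor of the WOX family that is known from cambium maintenance, and with histone modification. In a ChIP experiment DNA bound by, or cross-linked near, the tagged protein is enriched over input, and a peak caller lists the places where IP reads exceed the number expected from the input. Sites of weak or rare binding yield peaks close to the caller's limit. Regions are given by position, since no sequence or annotation of the build of these files was used here. The build is not named in them.

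The lists held 6536, 10759 and 9255 peaks in replicates 1, 2 and 3, and the smallest −log10 p in each lay just above 5. Of the peaks on chromosomes, 16.5% in replicate 1, 19.8% in replicate 2 and 24.7% in replicate 3 lay in 2-list regions, a mean of 20.4% ± 4.1 (SD, n = 3). The largest share was that of replicate 3. Most 2-list regions were simple: 2567 (95.9%) held 1 peak from each of their lists, 103 held 3 peaks and 6 held 4 or more. Among 3-list regions, 72.5% held 1 peak per list.

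Which lists made up the pair differed widely. Replicates 2 and 3 held 1617 of the 2-list regions (60.4%), replicates 1 and 3 held 622 (23.2%), and replicates 1 and 2 held 437 (16.3%). The list most often without a peak was thus that of replicate 1, which is also the shortest. This order depended on list length. When each list was limited to its 6536 peaks with the highest −log10 p, 2110 regions were of 2 lists, and replicates 1 and 3 then held 1012 of them (48.0%), replicates 2 and 3 held 558 (26.4%) and replicates 1 and 2 held 540 (25.6%). At equal length the list of replicate 2 was the one most often absent.

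The 2-list regions lay in the middle of the strength range. Where the highest −log10 q of a region over its lists was under 5, 98 of 1813 regions (5.41%) were of 2 lists and 94.3% were of 1 list. The 2-list share was largest between 7.5 and 10, with 940 of 2944 regions (31.9%), against 25.4% of 3 lists and 42.7% of 1 list. Between 15 and 20 it was 73 of 817 (8.94%), and at 20 or more 5 of 1073 (0.466%), where 99.3% of regions were of all 3 lists. A region whose highest value was 20 or more thus rarely lacked a peak in any list. Regions of more lists draw this maximum from more values, which moves them to higher classes by construction, so the shares are descriptions.

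**Figure D1:**
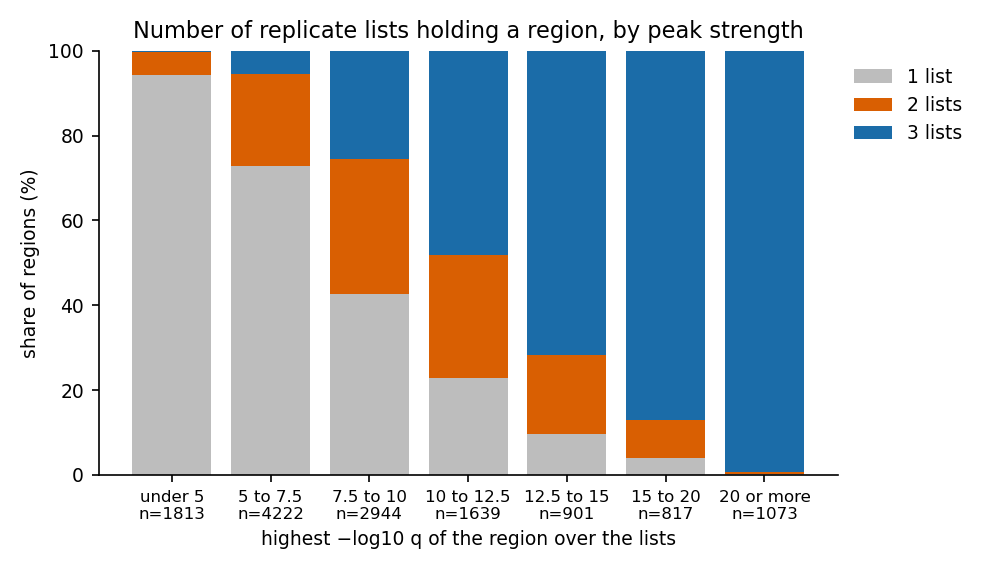
Share of merged regions on chromosomes (vertical axis, percent) held by 1, 2 or 3 lists, by the highest −log10 q of the region (horizontal axis, with the number of regions n in each class). The 2-list share is largest, 31.9%, in the class from 7.5 to 10 and falls to 0.466% at 20 or more.

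The fold of IP over pooled input was low and narrow in 2-list regions. It is the deposited value at the summit, taken from the peak with the highest −log10 p of each list. Over the 1059, 2054 and 2239 members with a peak in replicates 1, 2 and 3, the medians were 2.78, 3.08 and 2.84, a mean of 2.90 ± 0.16 (SD, n = 3). In 3-list regions the medians were 3.18, 3.53 and 3.39, a mean of 3.37 ± 0.18. The 2-list median was lower in each list, with differences of -0.396, -0.456 and -0.542 fold units and a mean of -0.465 ± 0.073 (SD, n = 3). Peaks of 1 list had a mean of 2.80 ± 0.15, so the 2-list value lay nearer to theirs than to that of the 3-list regions.

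The upper end differed more than the middle. Averaged over the lists of a region, 80% of 2-list regions lay between folds of 2.49 and 3.43, and 80% of 3-list regions between 2.65 and 5.10. Only 29 2-list regions (1.08%) had a mean fold of 4 or more, against 1008 3-list regions (24.0%). A −log10 q of at least 10 in every list that held the region was found for 91 2-list regions (3.40%) and for 1344 3-list regions (32.0%).

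**Figure D2:**
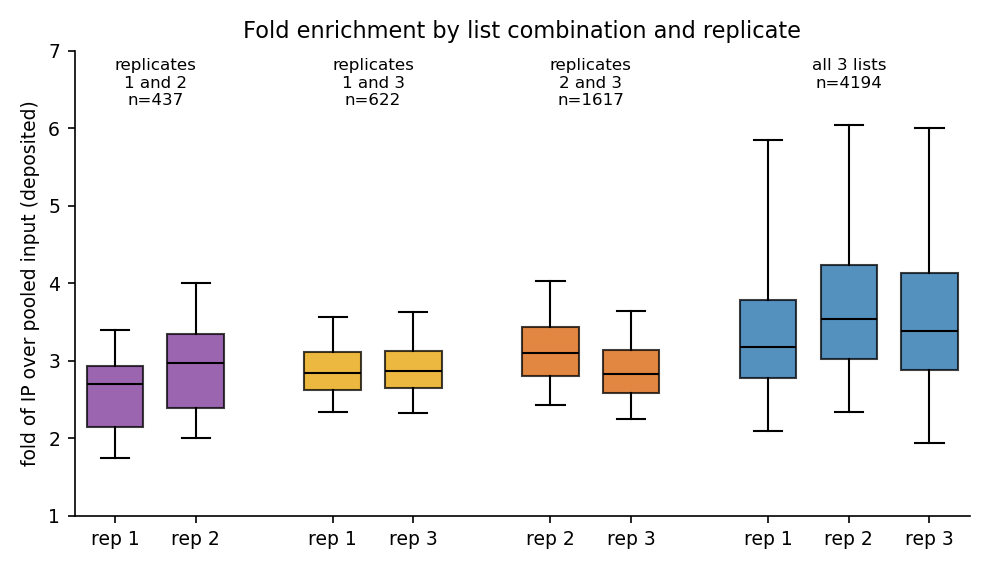
Deposited fold of IP over pooled input (vertical axis) for the 3 pairs of lists and for regions of all 3 lists, by replicate; n is the number of regions. Boxes span the middle 50% with the median, and whiskers run from the 5th to the 95th percentile. The medians of the pairs lie between 2.70 and 3.09, and those of the 3-list regions between 3.18 and 3.53.

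Peak height, as the number of extended IP reads over the summit, could be recovered from fold and p-value. In 2-list regions the median IP height was 41, 37 and 47 reads in replicates 1, 2 and 3, against 48, 44 and 60 in 3-list regions. The expected height, taken from the input, hardly differed, with medians of 13.5, 11.1 and 15.9 reads in 2-list regions and 13.8, 11.3 and 16.0 in 3-list regions. The lower folds went with lower IP heights over nearly the same input. Heights count extended reads, and the shortest peak was 113, 97 and 126 bp in the 3 lists, so heights and peak widths are compared within a list.

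The margin by which a peak passed can be stated in reads. It is the IP height minus the smallest height with a −log10 p above 5 at the same expected height. Its median was 9, 9 and 11 reads in 2-list regions, 15, 16 and 23 in 3-list regions, and 7, 8 and 9 in regions of 1 list, in replicates 1, 2 and 3. As a rank, the median peak of a 2-list region had a −log10 p above that of 37.7% ± 5.7 of its list (SD, n = 3), and the median peak of a 3-list region above 70.9% ± 6.3.

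The choice of members keeps their folds in a narrow range, which limits both the spread within a region and any correlation, so the values that follow are descriptions of the chosen regions. The SD between the lists of a region had a median of 0.257 fold units, against 0.356 in 3-list regions, where there are 3 values. Across regions, which are not independent and whose folds share a control, Spearman's rho of fold was 0.25 between replicates 2 and 3 (n = 1617) and 0.30 between replicates 1 and 3 (n = 622). In 3-list regions, whose folds span a wider range, it was 0.74 and 0.75 (n = 4194 each). For replicates 1 and 2 it was 0.65 (n = 437), but 0.16 in the 319 regions without a high-input peak, meaning one with an expected height of at least 4 times the lowest of its list. In 3-list regions without high input it was 0.64 between these lists, and replicate 3 had 0.69 with replicate 1 and 0.67 with replicate 2 (n = 3822 each). Replicate 2 had the higher fold in 78.9% of its regions with replicate 1. Replicate 3 had it in 51.9% of its regions with replicate 1 and in 30.8% of those with replicate 2. The lowest expected height was 5.80 reads in replicate 2, 7.16 in replicate 1 and 8.39 in replicate 3. A lower expected height needs a higher fold for a call, so these shares do not compare binding between lists.

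The fold that the absent list would have needed for a call can be modelled, because the control is shared. In 3-list regions the expected height relative to the lowest of its list was within 10% of the mean of the other 2 lists in 74.1%, 68.3% and 71.4% of cases for replicates 1, 2 and 3. Taking this relative height from the 2 lists with peaks, the absent list would have needed a median fold of 2.26, or 32 reads, to pass a −log10 p of 5. The mean fold of the 2 lists was above the needed fold in 99.7% of 2-list regions, with a median ratio of 1.29. The smaller of the 2 folds was above it in 95.7%. Both folds had passed the same limit by choice, so shares near 100% were set in advance and do not measure the absent list.

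By pair, the needed fold was 2.25 for replicate 1, 2.40 for replicate 2 and 2.12 for replicate 3 where each was absent. The ratio of mean to needed fold was lowest, 1.20, where replicate 2 was absent, and 1.32 and 1.35 where replicates 1 and 3 were. The needed fold was higher where the lowest expected height of the absent list was lower. That height was 5.80 reads in replicate 2, 7.16 in replicate 1 and 8.39 in replicate 3, so the order by pair does not measure binding. A peak also has to be at least as wide as the caller requires, which the model leaves out, and the 2 folds used were past the limit by choice. An absent peak does not show an unbound region at this depth.

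The strongest 2-list region was on chromosome 11, between positions 16070414 and 16070550. It had a fold of 5.82 in replicate 1 and 5.86 in replicate 3, with −log10 q of 19.2 and 22.3, IP heights of 47 and 54 and expected heights of 7.24 and 8.39. Both values stood far above the medians, and the summits fell 1 bp apart. The nearest peak of replicate 2 was 4276 bp away, and a fold of 2.93 would have been needed there. The expected height in replicate 3 was the lowest of its list, and that in replicate 1 was 1.01 times the lowest. It was the only 2-list region with a mean fold of at least 5.

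Next came a region on chromosome 1 from 485686 to 485990, with folds of 5.13 in replicate 2 and 4.50 in replicate 3 and −log10 q of 17.1 and 17.7. No peak of replicate 1 lay within 22555 bp of it. On chromosome 12, the region from 1519821 to 1519976 had 4.73 in replicate 1 and 4.58 in replicate 2, summits 2 bp apart, and a peak of replicate 3 only 47 bp beyond its edge. The first of these was 22524 bp from the nearest 3-list region, and the second sat beside one at a gap of 42 bp. On chromosome 2, the region from 1535723 to 1535996 had 5.14 in replicate 2 and 3.99 in replicate 3, and the nearest peak of replicate 1 was 5557 bp away.

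Several of the 10 highest mean folds came from unequal lists. The region on chromosome 15 from 2514519 to 2514769 had a fold of 5.92 in replicate 2 and 2.75 in replicate 1, with 56 and 31 reads over expected heights of 8.62 and 10.6, and none of replicate 3 within 5517 bp. Its SD between lists, 2.24, was the largest of the 10. On chromosome 8 the region from 2856247 to 2856858 had 4.94 and 3.47 in replicates 2 and 3, and on chromosome 16 that from 524647 to 524841 had 3.62 and 4.76 in replicates 1 and 2. The region on chromosome 5 from 3923430 to 3923865 had 3.21 and 5.13 in replicates 1 and 2, with summits 285 bp apart. For these 3 regions a peak of the absent list was close, at 422 bp on chromosome 8, 310 bp on chromosome 16 and 95 bp on chromosome 5.

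The other 2 of the 10 came from replicates 2 and 3. The chromosome 17 region from 13841849 to 13842085 had 4.22 and 4.13, and the chromosome 3 region from 14645195 to 14645360 had 4.89 and 3.44. The first was even between lists and the second was not. The nearest peak of replicate 1 was 4058 bp from the first and 14033 bp from the second. Replicates 1 and 3 supplied only the chromosome 11 region to the 10. Their next were on chromosome 1 from 41283921 to 41284193, with 3.496 and 4.528, and on chromosome 4 from 3137678 to 3137972, with 3.996 and 3.839. The first of these had a peak of replicate 2 at a gap of 8 bp. Judged by the smaller −log10 q of the pair, the third strongest was on chromosome 6 from 1805970 to 1806265, with 15.4 in replicate 1 and 14.2 in replicate 3 and folds of 4.12 and 3.31.

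A −log10 q of at least 20 in 1 list was found for 5 of the 2-list regions, which are named after their values were seen. The chromosome 11 and chromosome 15 regions above were among them. The others were on chromosome 12 from 2937623 to 2938128 (23.2 in replicate 2 and 8.40 in replicate 3), on chromosome 1 from 42893518 to 42893915 (7.22 and 23.2) and on chromosome 18 from 1752128 to 1752466 (22.5 and 8.34). In those 3, replicate 1 had no peak. Apart from the chromosome 11 region, each of the 5 was strong in 1 list and much weaker in the other.

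At the boundary of the rule, 65 of the 2-list regions had a peak of the absent list within 50 bp and 334 within 200 bp. The 3 nearest were all of replicates 1 and 2. They were the chromosome 1 region from 9839331 to 9839602 and the chromosome 16 region from 1926384 to 1926586, each at 1 bp, and the chromosome 8 region from 3883193 to 3883394, at 3 bp. Their folds were 2.84 and 3.01, 3.04 and 3.16, and 2.71 and 3.69. Weak joins also occurred inside the rule, where the lists of 124 of the 2676 2-list regions overlapped by 50 bp or less. Just outside the rule, 42 of the 4194 3-list regions held a list joined by 50 bp or less, with the smallest overlap, 2 bp, on chromosome 8 from 7528607 to 7529025. Its folds of 2.54, 3.79 and 2.80 were like those just inside. In 106 of the 3-list regions (2.53%) no base lay in peaks of all 3 lists.

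Where the absent list had a peak within 200 bp, that peak belonged to a 3-list region in 190 of 334 cases (56.9%), to another 2-list region in 77 and to a region of 1 list in 67. The absent list had a peak within 1000 bp of 40.4% of the regions of replicates 1 and 3, 37.5% of those of replicates 1 and 2 and 23.4% of those of replicates 2 and 3. The lowest share was again that of the pair without the shortest list.

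Regions of 2 lists were narrow. Their median width was 260 bp, with 80% between 161 and 435 bp, and 148 (5.53%) were 500 bp or wider. The median was 480 bp in 3-list regions, of which 46.4% were 500 bp or wider. A region merged from 3 lists is wider by construction than one from 2, but the single peaks differed too. Their median width in 2-list and 3-list regions was 156 and 279 bp in replicate 1, 162 and 292 bp in replicate 2, and 224 and 414 bp in replicate 3. By pair, regions of replicates 1 and 2 were narrowest at 199 bp, and at 216 bp in the 319 without a high-input peak. The pairs that include replicate 3 had medians of 268 bp (with replicate 1) and 274 bp (with replicate 2). Peaks of replicate 3 were the widest in both classes, so the pairs are not compared like for like.

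By median distance, the summits of a 2-list region were about as close as those of 3-list regions, except between replicates 1 and 2. Between replicates 2 and 3 the median distance was 51 bp, and in 3-list regions it was 53 bp for the same lists. Between replicates 1 and 3 it was 56 and 49 bp, and between replicates 1 and 2 it was 27 and 52 bp. Without high-input peaks, replicates 1 and 2 had 40 bp, against 59 bp in 3-list regions. Over the pairs the mean was 44.7 ± 15.5 bp in 2-list regions and 51.3 ± 2.1 bp in 3-list regions (SD, n = 3 pairs), a difference within the spread. Summits lay within 100 bp in 86.5% (replicates 1 and 2), 74.3% (1 and 3) and 74.2% (2 and 3) of 2-list regions. In 3-list regions the shares were lower for each pair, at 68.3%, 71.0% and 69.1%. The peaks of 2-list regions were also narrower, and the part of that in the distance was not tested.

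The pair of replicates 1 and 2 stood apart from the other pairs in its input. High-input regions, whose peaks all had an expected height of at least 4 times the lowest of their list, made up 116 of its 437 regions (26.5%). The other pairs had 0 of 622 (replicates 1 and 3) and 18 of 1617 (1.11%, replicates 2 and 3). Among 3-list regions they were 363 (8.66%). Among regions of 1 list they were 149 (2.28%), of which 140 were of replicate 2, 7 of replicate 1 and 2 of replicate 3. These were 4.04%, 1.27% and 0.0794% of the regions held by each of these lists alone. In all, 134 of the 2-list regions (5.01%) were of this class.

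**Figure D3:**
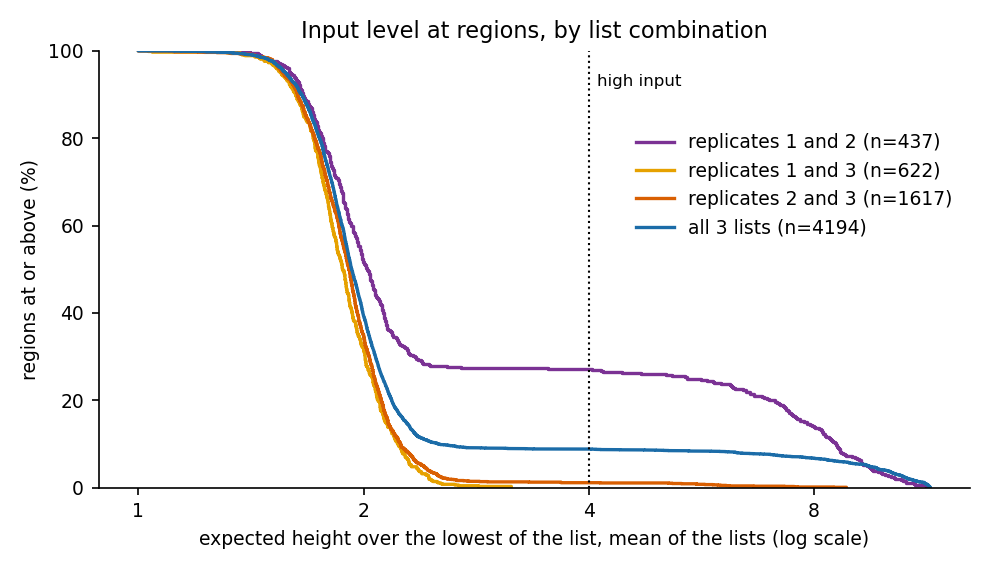
Share of regions (vertical axis, percent) whose expected height, relative to the lowest of its list and averaged over the lists, is at or above the value on the horizontal axis (log scale), by list combination; the dotted line marks 4 times the lowest. For replicates 1 and 2, 26.5% of regions had every peak at or past that line, and their curve falls from there to 0 at higher values; the curves of the other pairs are near 0 at the line.

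These 116 regions had many reads and small folds. Their IP height was 61 to 143 reads in replicate 1, with a median of 106.5, and 52 to 140 in replicate 2, with a median of 103.5. Their fold was 1.54 to 2.37 in replicate 1, with a median of 1.87, and 1.64 to 2.72 in replicate 2, with a median of 2.13. The expected height was 7.89 and 8.19 times the lowest, by median. In the 319 regions of the pair without any high-input peak the medians of fold were 2.83 and 3.13, close to those of the other pairs.

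The high-input regions of replicates 1 and 2 were not gathered in one place. They lay on all 19 chromosomes, with at most 11 on a chromosome (chromosome 5), and 103 of them were alone in a 100-kb window, with at most 3 in a window. They were narrow, at a median of 167.5 bp, and their summits lay 9 bp apart by median, against 216 bp and 40 bp in the rest of the pair. Replicate 3 had a peak within 1000 bp of 25.0% of them and of 42.3% of the rest.

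Replicate 3 had the fewest high-input peaks on chromosomes, 399, against 513 in replicate 1 and 663 in replicate 2. The part of them in 3-list regions was 94.99% for replicate 3, 75.8% for replicate 1 and 58.2% for replicate 2. The same list was low where all 3 had a peak. In the 363 high-input 3-list regions the median fold was 2.05, 2.32 and 1.90 in replicates 1, 2 and 3, and replicate 3 had the lowest of the 3 folds in 85.4% of them. In the 3822 3-list regions without high input it had the lowest in 29.6%, with medians of 3.25, 3.62 and 3.47. To be called at the relative expected heights of the 116 regions, replicate 3 would have needed a median fold of 1.55. Both observed folds were above the needed one in 100% of them, which was close to fixed in advance. Both had passed the limit by choice, and a larger expected height needs a smaller fold. The lowest expected height was 8.39 reads in replicate 3, against 7.16 in replicate 1 and 5.80 in replicate 2. The 100% thus does not measure replicate 3. What made replicate 3 differ at these sites was not tested.

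The distance to the nearest 3-list region does not enter the rule, except that regions closer than 1 bp would have merged. The median gap between edges was 11124.5 bp for 2-list regions and 10006 bp from one 3-list region to the next. A 3-list region lay within 5 kb of 1013 2-list regions (37.9%), of 39.9% of 3-list regions and of 33.1% of regions of 1 list. By pair the share was 40.3% (replicates 1 and 2), 39.4% (1 and 3) and 36.6% (2 and 3), a mean of 38.8% ± 1.9 (SD, n = 3 pairs). The 3-list value lay within that spread and the value of regions of 1 list below it.

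**Figure D4:**
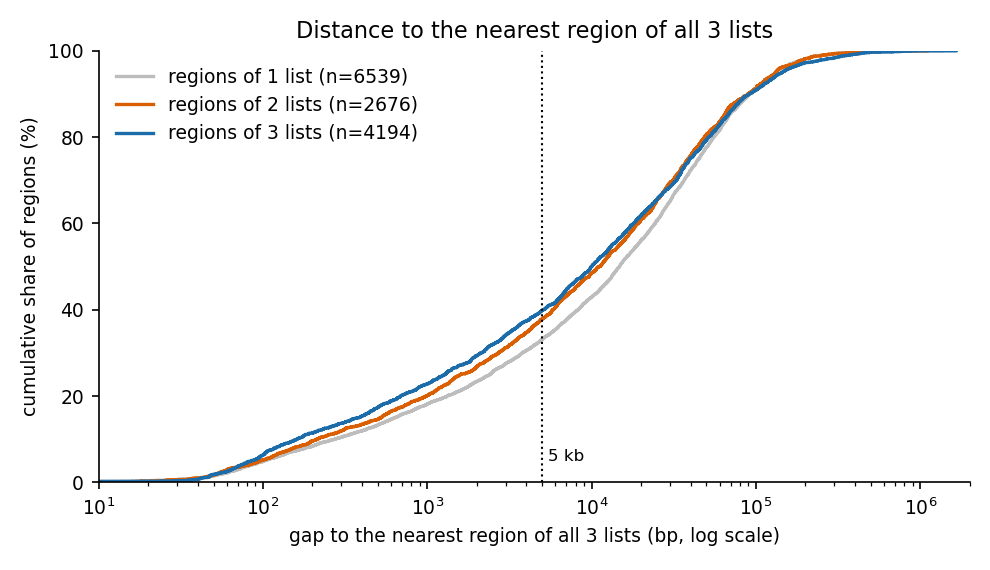
Cumulative share of regions (vertical axis, percent) by the gap in bp to the nearest 3-list region (horizontal axis, log scale), for regions of 1, 2 and 3 lists; a 3-list region is compared with the others of its kind, and the dotted line marks 5 kb. At that line the curves stand at 33.1%, 37.9% and 39.9%.

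Some 2-list regions flanked 3-list regions closely, but no more often than 3-list regions flanked each other. The gap was at most 1000 bp for 539 (20.1%), against 22.8% of 3-list regions and 18.2% of regions of 1 list. Among the gaps under 1000 bp, 47.7% were under 200 bp, against 50.2% between 3-list regions. Replicates 2 and 3 made up 52.3% of these 539, 62.2% of those over 1 kb and up to 50 kb away and 63.3% of the 518 farther away. The median of the mean folds was 2.93 in each of the 3 distance classes, and the median width was 254, 262 and 254.5 bp. Split by significance instead, the 91 members whose −log10 q reached 10 in both lists had a median gap of 8649 bp, and the other 2585 had 11293 bp. Of the 91, 18 (19.8%) lay within 500 bp of a 3-list region and 3 (3.30%) had none within 100 kb, against 14.4% and 8.94% of the others. Among 3-list regions these shares were 17.4% and 9.06%. These differences were not tested.

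At the far end, 234 (8.74%) had no 3-list region within 100 kb, against 9.06% of 3-list regions. The most remote was a high-input region on chromosome 17 from 7148732 to 7148867, 1113379 bp from the nearest, with folds of 1.83 and 2.18 in replicates 1 and 2. The next were on chromosome 3, from 5988895 to 5989186 with 2.97 and 2.70 in replicates 1 and 3, and from 6011010 to 6011428 with 2.302 and 2.704 in replicates 2 and 3. They were 594735 and 572493 bp from a 3-list region, and near each other. Another 2-list region within 5 kb was found for 29.1% of members.

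By chromosome, the density of 2-list regions followed that of 3-list regions with exceptions. Each chromosome was measured up to its last listed peak. Over 392 Mb there were 6.83 2-list and 10.7 3-list regions per Mb, or 0.638 of the former for each of the latter. Chromosome 8 was the densest with 10.6 per Mb, followed by chromosome 9 with 10.3 and chromosome 10 with 9.98. The sparsest were chromosome 17 with 4.04 and chromosome 19 with 3.03. Across the 19 chromosomes Spearman's rho between both densities was 0.76, a description in which both share lists and chromosome length.

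The number of 2-list regions per 3-list region ranged from 0.484 on chromosome 12 (90 and 186) to 0.812 on chromosome 15 (134 and 165). Chromosome 10 had 0.787 and chromosome 9, the densest in 3-list regions at 16.8 per Mb, had 0.610. Without high-input regions the range was 0.451 on chromosome 12 to 0.870 on chromosome 15. On chromosome 13 the ratio moved from 0.544 to 0.765, because 182 3-list regions fell to 119 and 99 2-list regions to 91. On chromosome 12 the pair of replicates 2 and 3 made up 44.4% of 2-list regions, the lowest share of any chromosome, and on chromosome 17 it made up 69.2%, the highest.

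**Figure D5:**
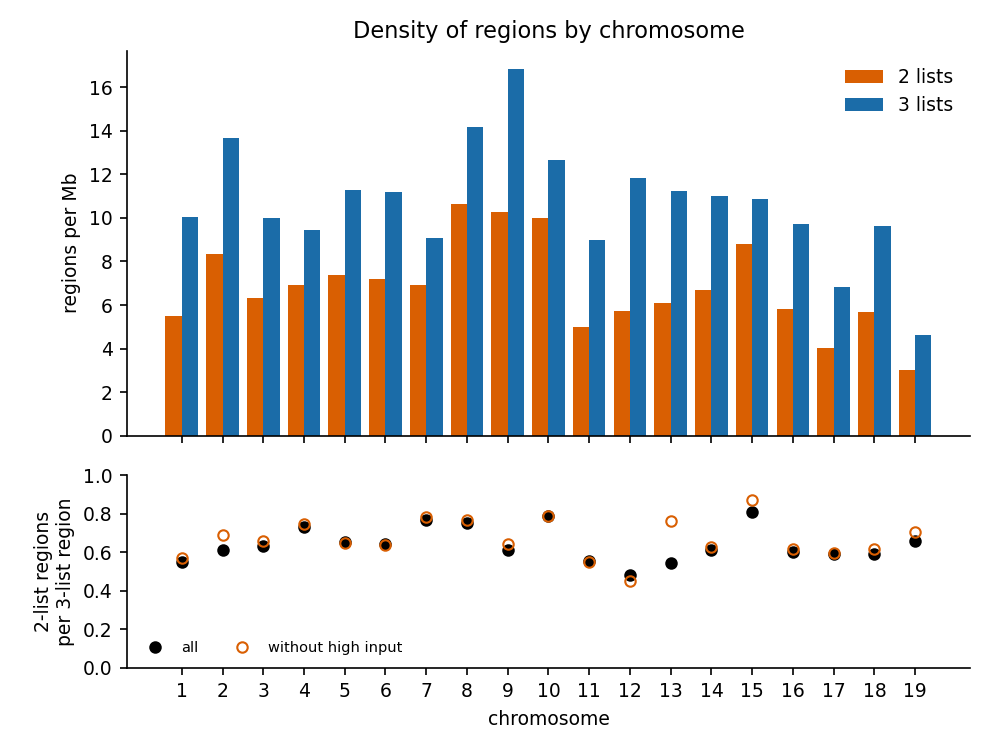
Upper panel: regions per Mb (vertical axis) of 2 lists and of 3 lists on each chromosome (horizontal axis). Lower panel: 2-list regions per 3-list region, for all regions and without high input; the ratio runs from 0.484 on chromosome 12 to 0.812 on chromosome 15 for all regions.

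The pairs shared part of this order. Chromosome 8 was densest for replicates 1 and 2 (1.90 per Mb) and for replicates 1 and 3 (2.39 per Mb), and chromosome 10 for replicates 2 and 3 (6.61 per Mb). Chromosome 19 was sparsest for replicates 1 and 2 (0.315 per Mb) and for replicates 2 and 3 (1.58 per Mb), and chromosome 17 for replicates 1 and 3 (0.435 per Mb). The density on chromosome 9 was 3.39 times that on chromosome 19, and 5.14, 1.90 and 4.11 times for the 3 pairs in the same order, a mean of 3.72 ± 1.65 (SD, n = 3 pairs). It was higher on chromosome 9 in each pair, but the size of the ratio was poorly fixed with 5 to 25 regions per pair on chromosome 19. This contrast was not particular to 2-list regions. For 3-list regions, densest on chromosome 9 and sparsest on chromosome 19, the ratio was 3.66. Regions of 1 list had 26.5 per Mb on chromosome 9 and 6.43 on chromosome 19.

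In 1-Mb windows, 2-list regions numbered 5 by median and 23 at most. The 401 windows had a Spearman's rho of 0.77 between 2-list and 3-list counts. The fullest were on chromosome 2 from 2000001 to 3000000, with 23 2-list and 26 3-list regions, on chromosome 8 from 3000001 to 4000000, with 22 and 28, and on chromosome 10 from 20000001 to 21000000, with 22 and 30. These windows are named after their counts were seen. In 55 windows 2-list regions outnumbered 3-list regions, and the excess was 6 at most, for example on chromosome 19 from 11000001 to 12000000 with 11 and 5. Windows without a 2-list region numbered 32, of which 21 held a 3-list region.

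Only 2 windows held 2-list regions and no 3-list region. They were on chromosome 13 from 8000001 to 9000000, with 2, and on chromosome 17 from 7000001 to 8000000, with the remote region named above. The longest stretch without a 2-list region ran on chromosome 13 from 8213656 to 11444557, over 3.23 Mb, with 10 3-list regions, of which 3 were without high input, and 9 regions of 1 list. Chromosome 4 held the next, 2.73 Mb from 9562255 to 12287259, with 7 3-list regions.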

How the data were processed

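The 3 deposited peak lists give, per peak and per the file layout, a fold (a ratio of IP over pooled input), a −log10 p, a −log10 q and a score computed by the authors' peak caller. The score is not printed. Tools named are MACS2 2.1.0, deepTools 3.5.1, Bowtie2 2.3.5 and Trimmomatic 0.33, per the submitters' processing notes, and peaks were called per IP replicate, per the peak names. Build, threshold and duplicate handling are details not given in the sources used here.

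Members and named-region rules were chosen with earlier results of these data known. Named are the 10 highest mean folds, the 3 highest of each pair, the 3 with the highest smaller −log10 q, the 3 nearest a peak of the absent list, and extreme chromosomes. IP and expected heights were recovered from fold (added count 1) and a Poisson upper tail, for peaks whose deposited −log10 p was matched within 1e-04. These were 99.95%, 100% and 99.92% of peaks. Depth is otherwise unknown. Merging and recovery were tested on simulated data (Python 3.11.15, SciPy 1.17.1, pandas 2.3.3). Positions count from 1, and gaps are bases between edges.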

Additional observations from a re-analysis of the deposited data

How the results depend on the processing

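A total of 67 alternative values were computed for the 7 results, and 44 of them stayed within a set range. Both counts include the values with 1 replicate left out, described below, which are no test of the 2-list values. The range was 1 SD over lists or pairs, 1.5 times for the count, and a 95% exact binomial interval for the pair share. That interval, 58.5% to 62.3%, counts regions as independent, which they are not, and measures no spread over lists. For the pair share, 4 alternatives lay within it and 3 outside. The 2-list median fold was below the 3-list median in each alternative that gave both, but the leading pair changed with list length. With a −log10 q of at least 10 there were 914 2-list regions, 56.6% of them of replicates 2 and 3, with a median fold of 3.71, a difference from 3-list regions of -0.811, a median width of 450 bp, 16.1% within 5 kb of a 3-list region and a density ratio of chromosome 9 to 19 of 5.20. With every list limited to the length of the shortest, the share of replicates 2 and 3 was 26.4% and that of replicates 1 and 3 was the largest at 48.0%, the median fold 3.09 and the share within 5 kb 30.1%. Peaks joined across up to 100 bp gave 35.0% within 5 kb, and a limit of 5 on −log10 q gave 34.0%. Without high-input peaks the pair share was 62.9%. With the mean width of the peaks of a region in place of the region width, the median was 193.5 bp. For these shifts the cause was not tested.

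The share of high-input regions in the pair of replicates 1 and 2 was 26.3% to 63.0% in the alternatives that kept them, with 0 to 3 such regions for replicates 1 and 3. When 1 replicate was left out, the pair that remained shared 4810 to 5841 regions, with a median fold of 3.19 to 3.28, a median width of 342 to 418 bp and a density ratio of 3.32 to 3.86. These include 3-list regions and are no test of the 2-list values. No paired analysis was possible because the single inputs that share replicate numbers with the IP samples were not analysed here and no result comes from a test; the differences within each list stand in the text.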

Other observations

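Outside the chromosomes, 16 further regions with peaks of exactly 2 lists lay on 15 scaffolds, 7 of replicates 2 and 3, 5 of replicates 1 and 2 and 4 of replicates 1 and 3. Counting them raised the high-input regions of replicates 1 and 2 from 116 to 121, so all 5 scaffold regions of that pair were of the high-input class.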
